A study of Mus musculus with 6 samples.

Results

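Semaphorins, ephrins, netrins and slits are the 4 classical systems of axon guidance cues, and their receptors are plexins and neuropilins, Eph receptors, Dcc and Unc5 proteins, and Robo proteins. Transcripts of these ligands and receptors were measured in mouse cerebellum at postnatal day 11, in 3 L1cam knockouts labelled male (genotype -/Y) and 3 wild type siblings whose sex the labels do not give, all of strain 129S2/SvPasCrlf. L1cam, the disrupted gene, encodes a cell adhesion molecule of growing axons, and both groups differ by that allele alone as far as the labels state. Total RNA from each mouse was hybridized to 1 Affymetrix U74Av2 array, on which a probe set is a group of short probes for 1 transcript. Members were chosen by gene symbol, and 58 of the 12422 probe sets tested belonged to them, covering 45 of the 8251 genes with a probe set of a single symbol. One of the 58 belonged to Unc50, which matches the symbol pattern of the netrin receptors but encodes a membrane protein unrelated to them. It was counted among the 58 and kept out of the 6 role groups. RefSeq holds 71 protein-coding genes of the same pattern, and the others, among them Slit1 to Slit3, Ephb2, Nrp2 and Robo2, were not analysed here.

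A guidance cue either attracts or repels a growth cone, depending on the receptors that the growth cone carries. Secreted class 3 semaphorins bind neuropilins, which signal through class A plexins, and membrane-bound semaphorins bind plexins directly. L1 is known as a partner of neuropilin-1 in the response to Sema3A. In the cerebellum, Sema6a and Plxna2 are known for their part in the inward migration of granule neurons, Plxnb2 for granule cell proliferation, and Unc5c for holding granule and Purkinje cells within the borders of the cerebellum.

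Between genotypes, no guidance probe set passed limma's test at an adjusted p of 0.05, and the smallest adjusted p among the 58 was 0.885. Over all probe sets tested, 0% passed. The largest difference in either direction was -0.24 on the log2 scale, at 1 of the probe sets of the plexin Plxnb2, and 43 of the 58 differed by less than 0.1. In all 58 the 95% interval of the difference lay inside a 1.5-fold change either way (0.585 on the log2 scale). These intervals are for array readings, which need not give the full change of a transcript. L1cam, the disrupted gene, differed by -0.60 and did not pass either (limma adjusted p = 0.841), though its p ranked 1 among all probe sets. Without adjustment, 2 probe sets had p under 0.05, for the semaphorin receptor Plxna2 and the Eph receptor Ephb6, both with lower knockout values. This is 3.45% of the members, against 5.08% of all probe sets tested, and 2.62% of all probe sets were lower in the knockouts at that level. The count depended on single arrays. It was 1 without knockout 1, without wild type 1 or without wild type 3, where 3.88%, 5.23% and 3.18% of all probe sets were under 0.05. Without knockout 2 it was 6 (10.3% of the members, against 8.68% of all probe sets), and without wild type 2 it was 5 (8.62%, against 5.7%). Weighting the arrays by their quality gave 7 (12.1%, against 9.35%). In tissue RNA, fewer cells of a type and less RNA per cell cannot be told apart.

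Knockout values lay below wild type for 40 of the 58 probe sets, or 69.0%, and the same was seen for 62.3% of all probe sets tested. With each gene taken at its brightest probe set, the median difference of the guidance genes was -0.041, beside -0.022 over all genes. After each array was centred on its own median, the guidance median was -0.0096, and 27 of the 58 differences were above 0. Centring shifts every difference by the same amount. Taken across all 12422 probe sets, the median difference rose with it, from -0.0229 as deposited to 0.0089. The gap between guidance probe sets and the whole array was therefore unchanged by centring. This also applies to the centred medians of the role groups below. In the values as deposited the guidance median was -0.0191 without knockout 3 and -0.0266 without wild type 1. The groups did not overlap in 4 of the 58 probe sets, which is 6.9%, against 10.4% of all probe sets tested. All 4 were lower in the knockouts, for Plxna2, Plxna1, Ephb6 and Efnb1, and 6.63% of all probe sets were lower without overlap.

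**Figure D1:**
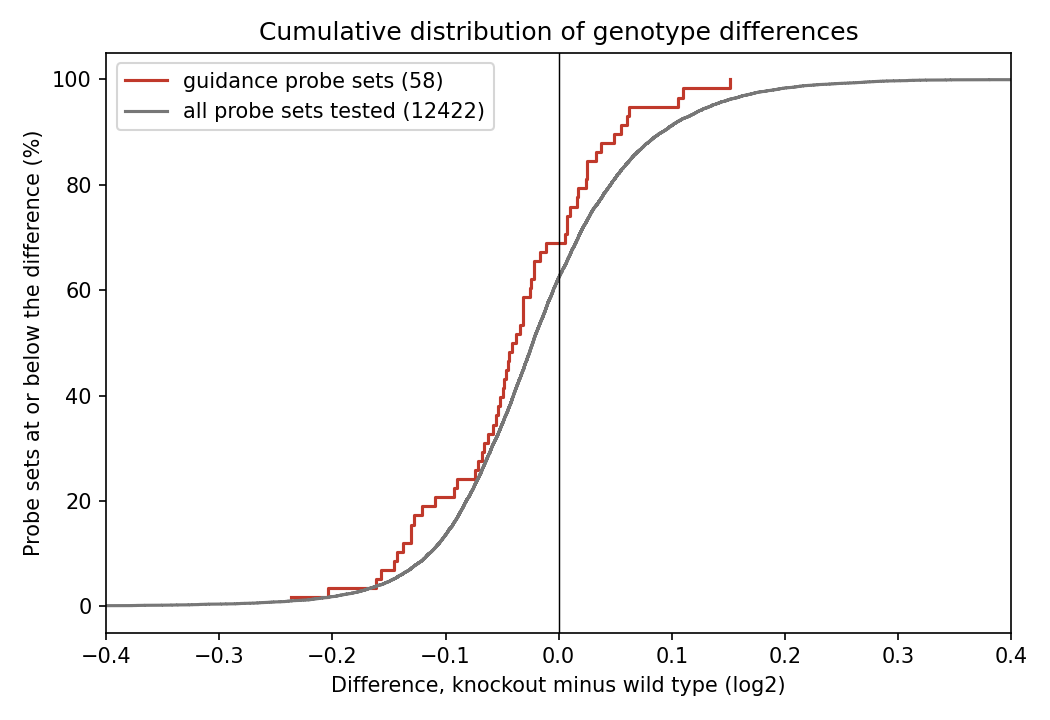
Cumulative share of probe sets (y, in percent) at or below a given difference, knockout minus wild type (x, log2), for the 58 guidance probe sets in red and all 12422 probe sets in grey. The red curve lies slightly to the left, with medians of -0.040 and -0.023 over probe sets.

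The data themselves are log2 values made by RMA, which pulls all arrays towards 1 distribution. Array medians ran from 8.87 to 8.94, and correlations between arrays from 0.9948 to 0.9974. L1cam read 8.25, 8.01 and 7.91 in the knockouts, against 8.79, 8.48 and 8.73 in wild type, a difference of -0.60 (limma adjusted p = 0.841). The array labelled knockout 1 stood apart from the other 5. Its Y-linked Eif2s3y read 7.11, against at least 8.59 elsewhere, and its Uty read 6.67, against at least 7.32. Those readings go against the label, which calls the mouse male. Y-linked Kdm5d did not stand apart, at 7.22 against 7.22 to 7.41 elsewhere, nor did X-linked Xist, expressed in females, at 6.33 against 6.31 to 6.41. Its 3' and 5' control probe sets for Gapdh differed by 0.67, against at most 0.13 elsewhere. Granule neuron markers (6 of 8 listed were measured) had a median percentile of 96.9 in mean level and Purkinje cell markers (4 of 6) one of 96.5. Blood markers, summed on the linear scale, ran from 15.06 to 15.24 on the log2 scale in the knockouts and from 14.81 to 15.0 in wild type, with 3 of the 3 measured higher. Oligodendrocyte markers ran from 14.15, in knockout 1, to 14.50 in the knockouts and from 14.35 to 14.65 in wild type, with 6 of the 6 measured lower. Their part in the differences below was not tested. Readings of different probe sets depend on their probes. For 35 genes of liver, muscle, pancreas and other tissues the median reading was 8.18 and the 90th percentile 9.82, and 22 of the 58 guidance probe sets, for 19 genes, lay above 9.82 while 16 lay at or below 8.18.

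The semaphorin ligands were measured by 21 probe sets of 16 genes, and none passed. Of the 16 genes, 6 were higher and 10 lower in the knockouts, and the median was -0.031, or 0.0004 once arrays were centred on their medians. With single arrays left out it ran from -0.0508, without wild type 3, to -0.0045, without wild type 1, and was -0.0091 without knockout 1 and -0.0078 without knockout 3. The secreted class 3 members were all lower in mean at their brightest probe set, and the class 4 members all higher, though no interval excluded 0. Sema3a, a repellent for many axons and the ligand of neuropilin-1, read 7.99, 7.91 and 8.02 in the knockouts, against 8.17, 8.01 and 8.13 in wild type. It differed by -0.13 (SE 0.07, 95% interval -0.28 to 0.02), and only wild type 2 lay within the knockout range. Sema3e, a ligand of Plxnd1, read 7.38, 7.60 and 7.48 in the knockouts, against 7.63, 7.53 and 7.69 in wild type, and differed by -0.13 (SE 0.08). Knockout 2 and wild type 2 made its groups overlap. Sema3f, a ligand of neuropilin-2, read 7.55, 7.56 and 7.51 in the knockouts, against 7.80, 7.49 and 7.76 in wild type, a difference of -0.14 (SE 0.08). Here wild type 2 lay below all 3 knockouts, and without that array the difference was -0.24. Sema3c differed by -0.13, and by -0.061 without wild type 2, which had the highest value. Sema3b differed by -0.055 at one probe set and by 0.0077 at the other. The class 3 probe sets were dim, at percentiles 7.14 to 42.65 of mean level. In both genotypes the means of Sema3a, Sema3c, Sema3e and Sema3f lay below 8.18, the median reading of the 35 genes of other tissues. Of those 35 genes, 23 were lower and 12 higher in the knockouts, with a median difference of -0.036.

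Class 4 semaphorins are membrane-bound ligands, among them Sema4d, a ligand of B plexins. Sema4f read 10.74, 10.72 and 10.80 in the knockouts, against 10.76, 10.68 and 10.72 in wild type, which overlapped. It had the highest mean reading of the semaphorin probe sets, at percentile 85.14. Sema4d differed by 0.024, Sema4f by 0.033 and Sema4a by 0.049 and 0.15 at its probe sets. The larger of the Sema4a values rested on knockout 2, which read 8.52 against at most 8.25 on any other array, and it was 0.049 without it. Sema4b differed by 0.017, -0.011 and -0.048 at 3 probe sets.

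Sema6a, the transmembrane ligand of Plxna2 in granule neurons, read 9.59, 9.90 and 9.60 in the knockouts, against 9.84, 9.67 and 9.76 in wild type. Knockout 2 lay above every wild type array and the other knockouts below them, so the groups overlapped, with a difference of -0.058 (95% interval -0.26 to 0.14). It was -0.0031 without knockout 1 and -0.16 without knockout 2. The other transmembrane and anchored members differed little. Sema6b was at -0.025, Sema6c at -0.038, Sema6d at 0.010, Sema5a at -0.016 and Sema5b at 0.025. Sema7a, which is anchored to the membrane by a lipid, was at -0.066 and 0.0073.

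The semaphorin receptors were the role group in which every measured probe set had a lower knockout mean, 8 of 8 covering 6 genes. Over all probe sets tested, 62.3% were lower. All 8 were also lower after quantile normalization and after cyclic loess. After median centring 6 of the 8 were lower, and Plxna3 and 1 Plxnb2 probe set differed by 0.0003 and 0.0001. The median over genes was -0.050, or -0.018 with that centring. None passed. Plxna2, the receptor for Sema6a, read 8.81, 8.78 and 8.86 in the knockouts, against 8.96, 9.04 and 9.05 in wild type. Every knockout array lay below every wild type array. The means were 8.81 ± 0.041 in the knockouts and 9.02 ± 0.047 in wild type (SD, n = 3 each), a difference of -0.20 (SE 0.06, 95% interval -0.34 to -0.07, limma unadjusted p = 0.00669, adjusted p = 0.885). This p ranked 92 among all 12422 probe sets. Over the 15 fits that change the scaling, the filter, the variance model or the arrays used, the Plxna2 difference lay between -0.23 and -0.17. Its unadjusted limma p lay between 0.0044 and 0.028. No other member was under 0.05 in all 15 fits, though 7 members were under it with array weights. Without knockout 1 the Plxna2 difference was -0.20. Its probe set sat at percentile 49.96 of mean level. Both group means lay between 8.18 and 9.82, the median and 90th percentile of readings for the 35 genes of other tissues.

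Plxna1, a class A plexin that pairs with neuropilins, read 9.95, 9.93 and 10.001 in the knockouts, against 10.06, 10.06 and 10.13 in wild type, again without overlap. The difference was -0.12 (SE 0.06, 95% interval -0.25 to 0.01, limma adjusted p = 0.922). Plxna3, the X-linked class A plexin, read 10.48, 10.53 and 10.44 in the knockouts, against 10.58, 10.43 and 10.53 in wild type, and its groups overlapped, with a difference of -0.032. For the neuropilin Nrp1, the brighter probe set read 8.46, 8.49 and 8.38 in the knockouts, against 8.44, 8.49 and 8.55 in wild type. The dimmer one read 7.44, 7.20 and 7.54 in the knockouts, against 7.32, 7.47 and 7.67 in wild type. Both overlapped, with differences of -0.052 (95% interval -0.19 to 0.09) and -0.093 (95% interval -0.33 to 0.14). Plxnd1 differed by -0.049.

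Plxnb2, a receptor of class 4 semaphorins, showed how 1 array can set a value. One probe set read 9.40, 9.99 and 9.93 in the knockouts, against 9.99, 9.89 and 10.16 in wild type. The difference of -0.24 (SE 0.14) rested on knockout 1, and it was -0.050 without that array. The brighter probe set of the gene read 10.74, 10.50 and 10.69 in the knockouts, against 10.73, 10.59 and 10.71 in wild type, and differed by -0.032.

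**Figure D2:**
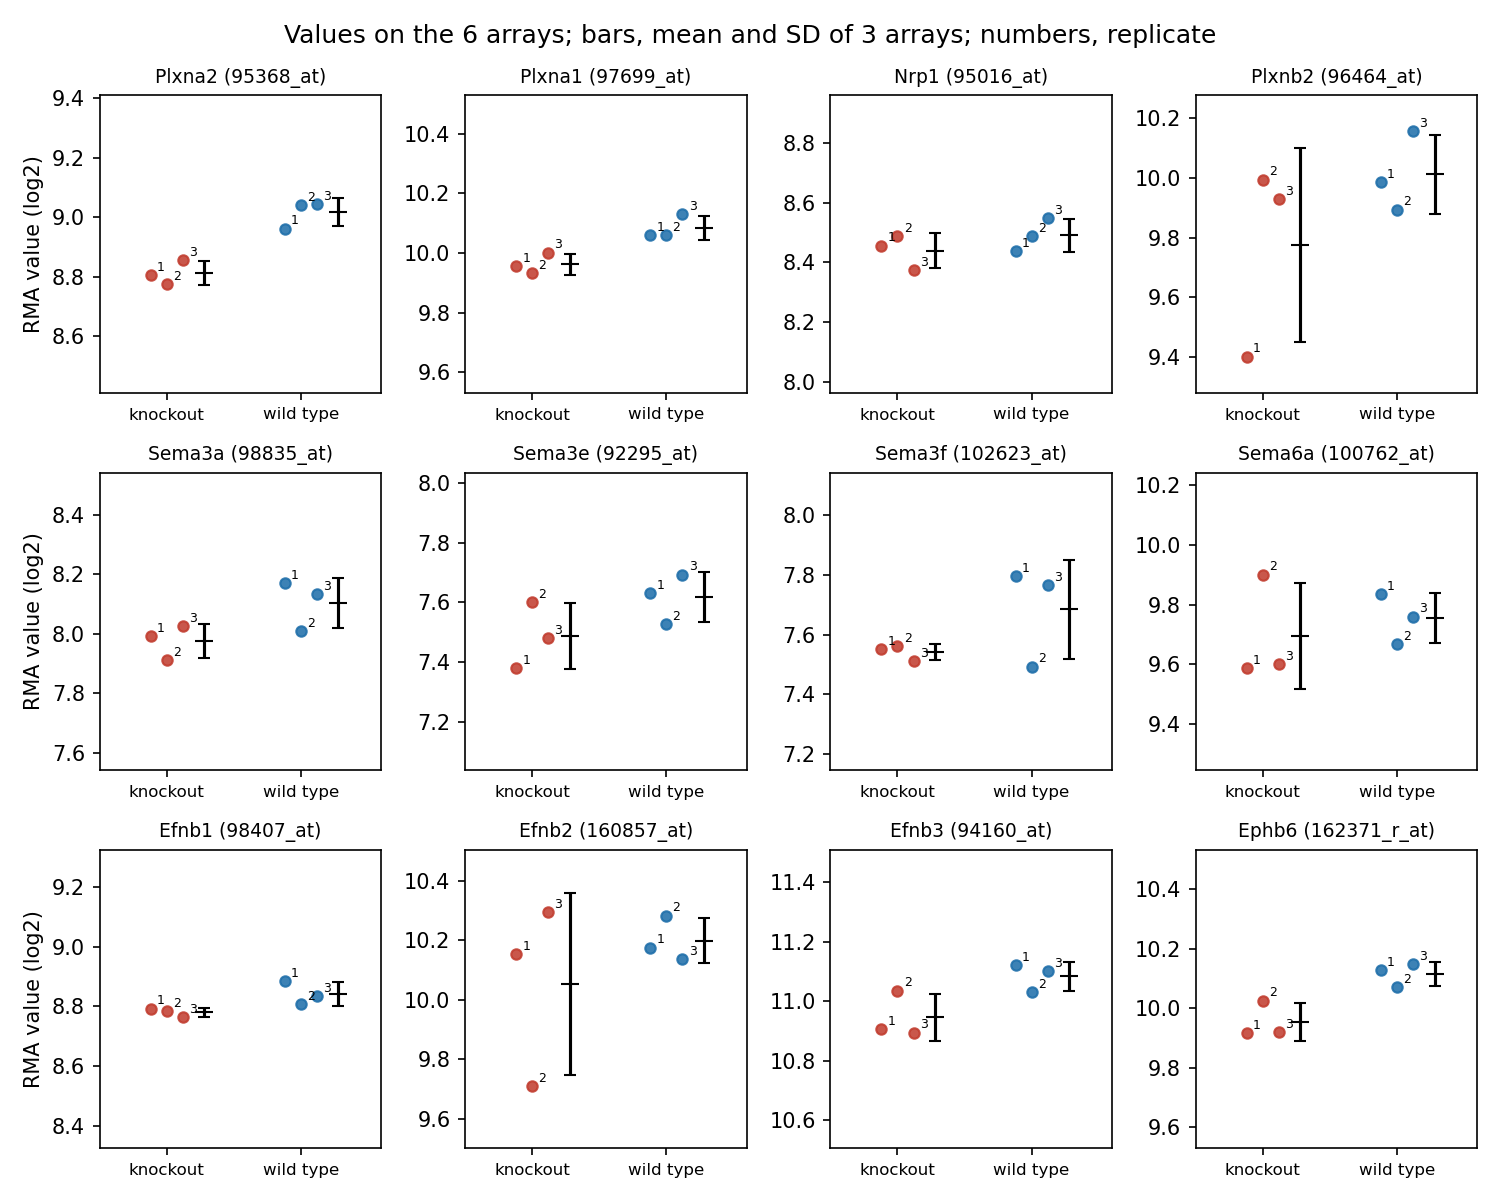
RMA values (y, log2) of 12 guidance probe sets on the knockout arrays (red, left) and the wild type arrays (blue, right), each panel spanning 1 log2 unit, with the replicate number beside each point and bars for the mean and SD of 3 arrays. The groups separate for Plxna2, Plxna1, Efnb1 and Ephb6, while knockout 1 lies apart for Plxnb2 and knockout 2 for Efnb2.

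Ephrins are ligands held at the cell surface, the A class by a lipid anchor and the B class by a transmembrane segment, and B ephrins also signal into the cell that carries them. Of the 8 ephrin genes, 2 were higher and 6 lower in the knockouts, and the median was -0.044, or -0.0123 with arrays centred on their medians. None of the 9 probe sets passed. Efnb3, which guides corticospinal axons at the midline, read 10.91, 11.04 and 10.89 in the knockouts at its brighter probe set, against 11.12, 11.03 and 11.10 in wild type. Knockout 2 overlapped wild type 2, and the difference was -0.14 (SE 0.06, 95% interval -0.28 to 0.01, limma adjusted p = 0.922). Its other probe set read 10.34, 10.11 and 10.39 in the knockouts, against 10.21, 10.17 and 10.12 in wild type, and differed in the opposite direction, by 0.11 (SE 0.08). The probe sets of Efnb3 therefore give no common direction.

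Efnb1, an X-linked B ephrin, read 8.79, 8.78 and 8.76 in the knockouts, against 8.89, 8.81 and 8.83 in wild type. Its groups did not overlap, but the difference was small, at -0.063 (95% interval -0.19 to 0.07, limma adjusted p = 0.932). Efnb2, known in arteries as well as in neurons, read 10.15, 9.71 and 10.30 in the knockouts, against 10.18, 10.28 and 10.14 in wild type. Knockout 2 alone was low. The difference of -0.15 (SE 0.13) became 0.026 without knockout 2. Markers of endothelium and pericytes, of which 8 of 9 were measured, had a median difference of 0.015, with 4 higher and 4 lower.

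Among A ephrins, Efna3 read 11.39, 11.48 and 11.40 in the knockouts, against 11.46, 11.36 and 11.53 in wild type, with overlap and a difference of -0.025. It sat at percentile 92.38 of mean level, the highest of the ephrins. Efna2 read 9.70, 9.85 and 9.76 in the knockouts, against 9.95, 9.80 and 9.90 in wild type, with overlap at wild type 2 and a difference of -0.11 (SE 0.07). Efna5, a repellent known from topographic maps, read 6.04, 6.09 and 6.04 in the knockouts, against 6.05, 6.13 and 6.06 in wild type. These values overlapped between genotypes, and the Efna5 mean stood at percentile 4.71 among all probe sets. Efna1 differed by 0.062 and Efna4 by 0.061. Efna1, Efna3 and Efna4 lie side by side in RefSeq's gene order, with 0 protein-coding genes between Efna1 and Efna3 or between Efna3 and Efna4, and their differences had no common sign.

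Eph receptors are tyrosine kinases named for the ephrin class that they mostly bind. Of 9 genes, 3 were higher and 6 lower in the knockouts, with a median of -0.044, and none of the 13 probe sets passed. The median was -0.012 after median centring, -0.0159 after quantile normalization, and -0.0245 and -0.0124 without knockout 3 and without wild type 3. Ephb6, a family member whose kinase domain is inactive, read 9.92, 10.03 and 9.92 in the knockouts, against 10.13, 10.07 and 10.15 in wild type. These groups did not overlap, and the difference was -0.16 (SE 0.06, 95% interval -0.30 to -0.02, limma unadjusted p = 0.0258, adjusted p = 0.922). This probe set is of a type open to cross-hybridization by its name. The other probe set of the gene read 8.64, 8.64 and 8.58 in the knockouts, against 8.70, 8.47 and 8.61 in wild type, with overlap and a difference of 0.025 (95% interval -0.13 to 0.18). The lower Ephb6 reading was therefore seen at 1 of 2 probe sets.

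Epha3 read 7.70, 7.74 and 7.60 in the knockouts, against 7.76, 7.68 and 8.07 in wild type. Wild type 3 stood above all other arrays, and the difference of -0.16 (SE 0.10) was -0.042 without it. Epha4, a receptor for both ephrin classes that keeps motor axons from crossing the midline, read 8.12, 8.11 and 8.06 in the knockouts at its brighter probe set, against 8.13, 7.98 and 8.34 in wild type. It differed by -0.053 there and by -0.090 at the dimmer probe set, which read 7.86, 7.96 and 7.88 in the knockouts, against 7.93, 7.96 and 8.09 in wild type. Both overlapped. Epha2 had the brightest Eph probe set, at percentile 78.53, and read 10.28, 10.42 and 10.10 in the knockouts, against 10.32, 10.24 and 10.37 in wild type, a difference of -0.044. Epha7 differed by 0.11 at its brighter probe set and by -0.068 at the dimmer one, which lay at percentile 3.8. Epha5 differed by 0.016 and -0.031, Epha6 by 0.0053, Epha8 by -0.046 and Ephb3 by -0.022.

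**Figure D3:**
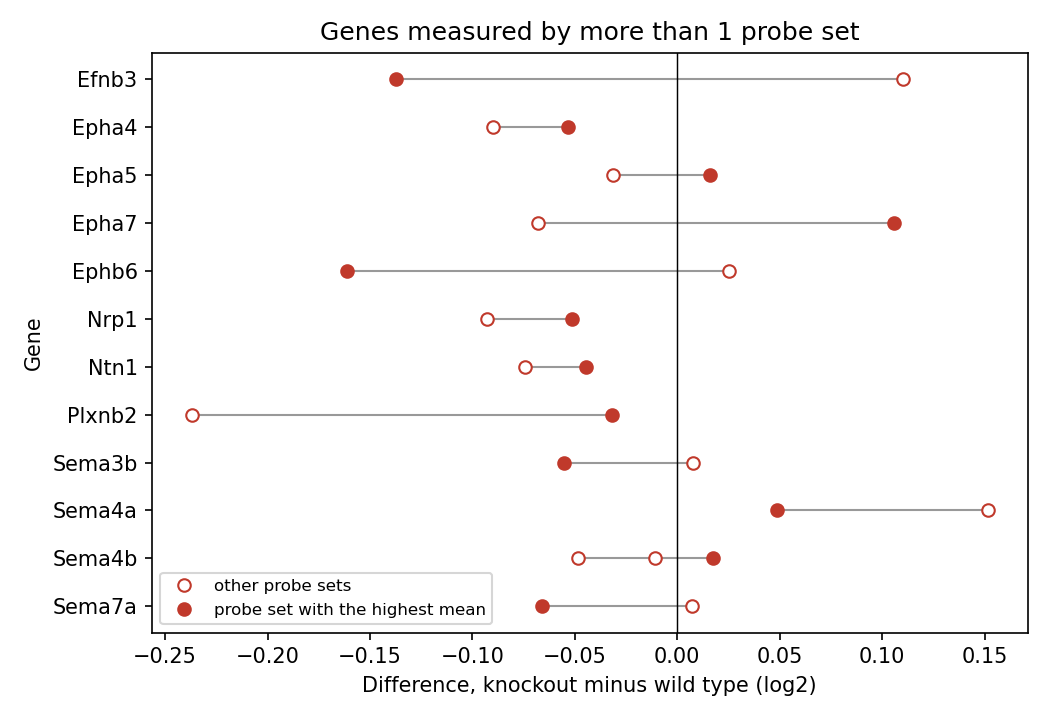
Differences, knockout minus wild type (x, log2), at each probe set of the 12 guidance genes with more than 1 (y). Filled points mark the probe set with the highest mean, and the line between points crosses 0 for 7 genes, Efnb3 with the widest gap of 0.25 among them.

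Over these 12 genes, 5 had the same sign at all of their probe sets and 7 did not. The gap between probe sets of 1 gene reached 0.25 for Efnb3, 0.21 for Plxnb2, 0.19 for Ephb6 and 0.17 for Epha7. Plxna2 and Plxna1 had 1 probe set each, so no second reading of them was at hand.

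The netrin system was represented by Ntn1, its attractive receptor Dcc and its repulsive receptor Unc5c, in 4 probe sets, and none passed. Ntn1 read 10.08, 10.07 and 9.97 in the knockouts at its brighter probe set, against 10.10, 10.11 and 10.04 in wild type, a difference of -0.045. At the dimmer one it read 7.24, 7.40 and 7.21 in the knockouts, against 7.39, 7.33 and 7.35 in wild type, a difference of -0.074. Both overlapped. Dcc read 9.29, 9.33 and 9.20 in the knockouts, against 9.34, 9.07 and 9.24 in wild type, and differed by 0.055 (95% interval -0.12 to 0.23). Unc5c read 10.93, 10.88 and 10.94 in the knockouts, against 10.97, 10.85 and 11.03 in wild type, and differed by -0.035 (95% interval -0.18 to 0.11). The knockout values of Unc5c all lay inside the wild type range.

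Of the slit system only 2 receptors were measured. Robo1, a receptor for slits, read 8.18, 8.18 and 8.27 in the knockouts, against 8.27, 8.19 and 8.05 in wild type, a difference of 0.037 (95% interval -0.12 to 0.19). Robo3, known for letting commissural axons cross the midline, read 8.22, 8.40 and 8.34 in the knockouts, against 8.30, 8.51 and 8.37 in wild type, a difference of -0.071 (95% interval -0.24 to 0.10). Both overlapped. Unc50 differed by -0.041.

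**Figure D4:**
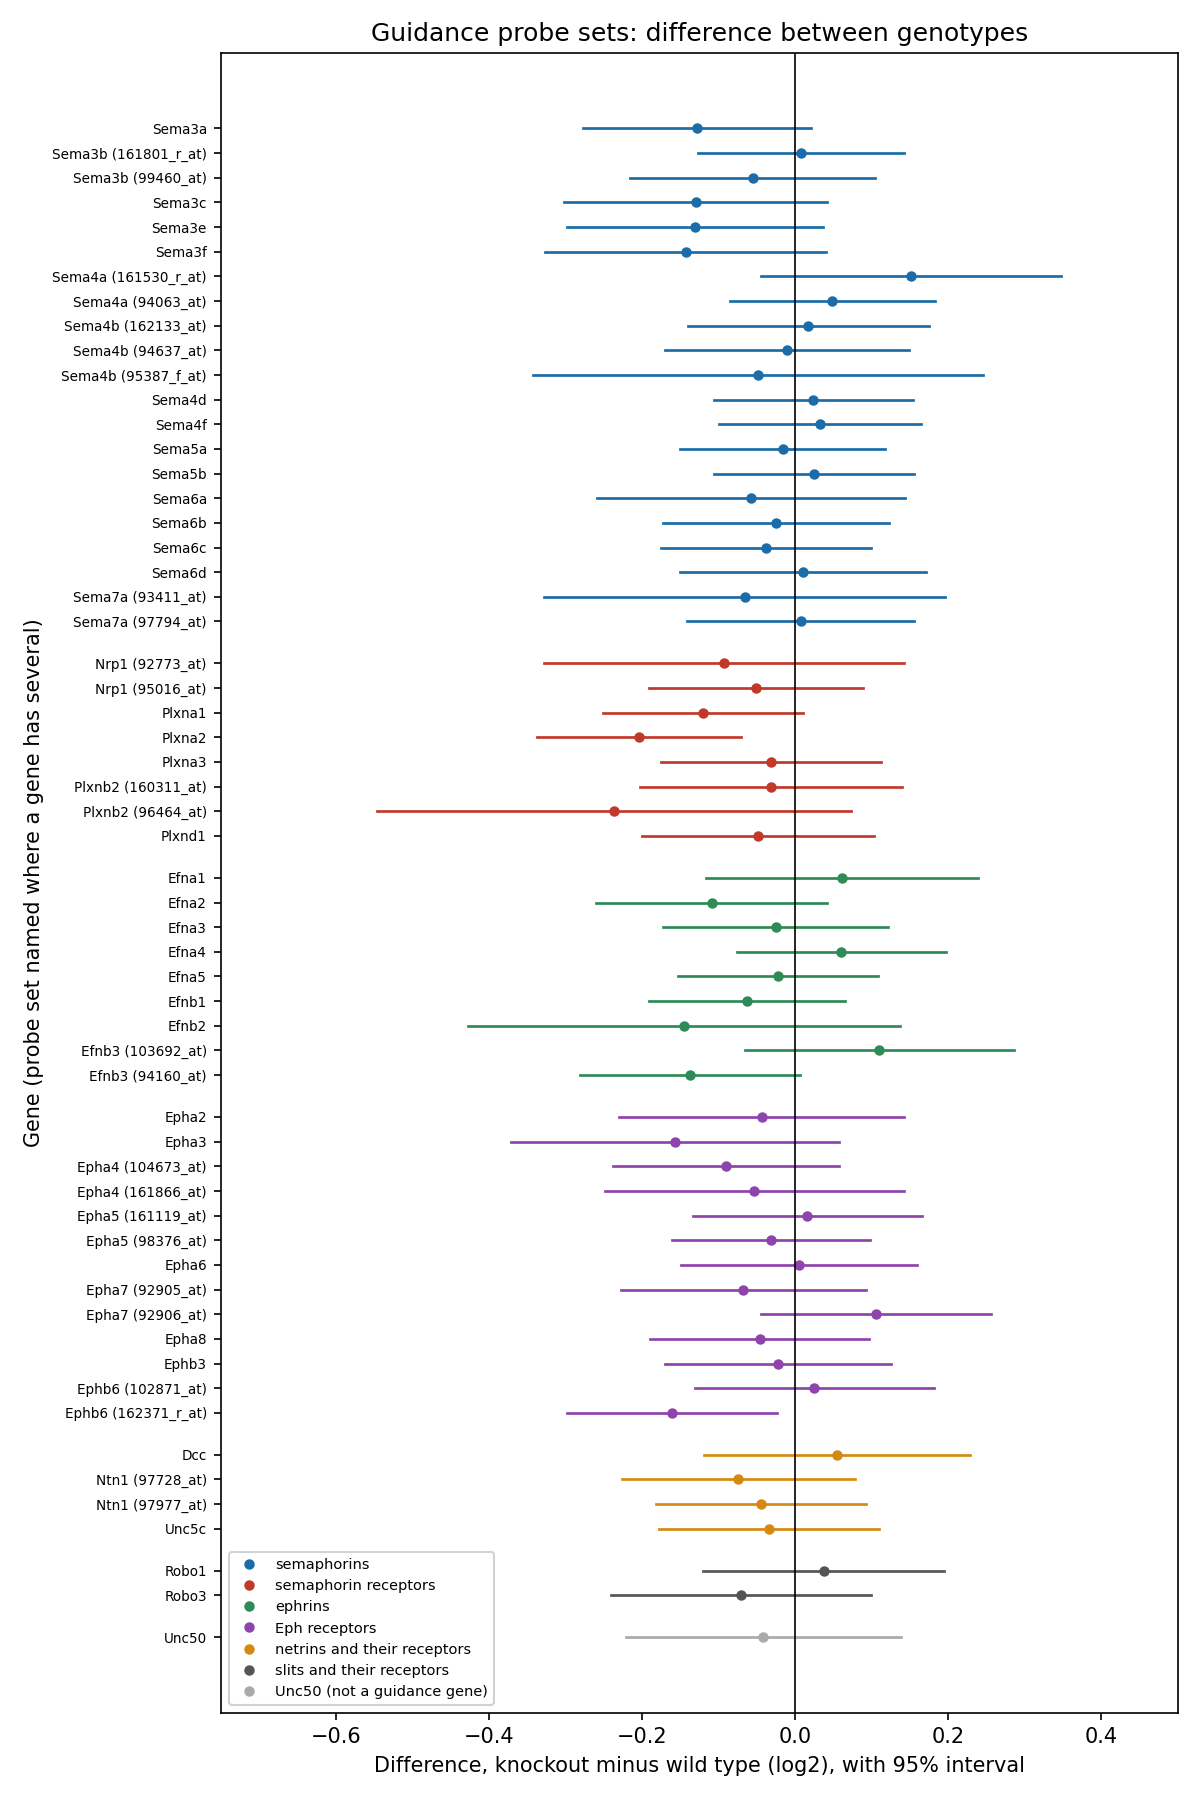
Difference, knockout minus wild type (x, log2), with its 95% interval from limma for each of the 58 probe sets (y), coloured by role group. Only the intervals of Plxna2 and 1 Ephb6 probe set leave out 0. All 8 semaphorin receptor points lie left of 0, as do 8 after quantile normalization or cyclic loess and 6 after median centring.

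Signalling proteins inside the growth cone were compared from a list of 76 effectors of these receptors, of which 50 were measured. No gene passed, 21 were higher and 29 lower in the knockouts, and the median was -0.015. Unadjusted p-values under 0.05 were seen for 2 higher and 2 lower genes, 8.0% of the list against 5.08% of all probe sets. The groups did not overlap for 4 higher and 5 lower genes, 18.0% of the list against 10.4% of all probe sets. The list counts each gene at its brightest probe set, with a median percentile of 70.4 in mean level. The shares over all probe sets include dim and second ones, so the 2 are not like for like. They can neither show nor exclude an excess in effectors. The smallest p-values belonged to Trio, an exchange factor for Rac that acts below Dcc (-0.25), Crmp1, a mediator of Sema3A signalling (0.26), and the ubiquitin ligase Cbl (-0.20), each without overlap between groups. Of 59 other guidance cues and receptors 37 were measured, none passed or reached an unadjusted p of 0.05 in limma, and the median was -0.034, with 14 higher and 23 lower. Vcan, a matrix proteoglycan, differed by -0.13, Dab1, the adaptor of reelin signalling, by -0.11, and the receptor phosphatase Ptprs by 0.21.

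The start regions of the member with the smallest p in each large role group are shown for what the family members do and do not share in sequence. They are RefSeq's, of build GRCm38.p6, from 250 bases before to 50 after the annotated start, and capitals mark the CG dinucleotides. The table held such a region for 38 of the 45 member genes, and none is shown for Efnb3.
Sema3a, chr5:13396534-13396833, + strand: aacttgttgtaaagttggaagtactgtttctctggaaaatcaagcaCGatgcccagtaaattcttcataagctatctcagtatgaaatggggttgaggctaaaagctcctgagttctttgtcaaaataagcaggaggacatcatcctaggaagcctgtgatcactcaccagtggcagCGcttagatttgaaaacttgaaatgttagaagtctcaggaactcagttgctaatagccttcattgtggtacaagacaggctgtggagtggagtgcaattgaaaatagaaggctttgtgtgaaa
Plxna2, chr1:194619579-194619878, + strand: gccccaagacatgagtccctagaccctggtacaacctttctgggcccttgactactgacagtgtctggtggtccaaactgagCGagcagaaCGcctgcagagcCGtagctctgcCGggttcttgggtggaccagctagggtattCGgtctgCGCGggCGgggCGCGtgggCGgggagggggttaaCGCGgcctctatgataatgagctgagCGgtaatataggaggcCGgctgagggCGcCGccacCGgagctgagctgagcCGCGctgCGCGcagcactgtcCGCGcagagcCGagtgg
Ephb6, chr6:41605261-41605560, + strand: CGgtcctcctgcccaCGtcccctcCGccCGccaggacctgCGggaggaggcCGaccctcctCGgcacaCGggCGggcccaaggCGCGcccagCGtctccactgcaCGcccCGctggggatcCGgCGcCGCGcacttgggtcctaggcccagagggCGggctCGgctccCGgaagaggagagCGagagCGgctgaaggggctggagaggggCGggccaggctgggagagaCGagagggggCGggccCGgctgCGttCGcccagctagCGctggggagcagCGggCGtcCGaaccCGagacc
The Plxna2 region held 25 CG dinucleotides, the Ephb6 region 34 and the Sema3a region 2. The median was 23 over the 38 member genes and 19 over 6576 genes of the array with a region. The E-box CANNTG, which reads the same on both strands, was present in 16 of the 38 member regions (42.1%), against 64.7% over the array. It occurred 2 times in the Sema3a region, 1 time in that of Ephb6 and 0 times in that of Plxna2. These counts describe the letters in the windows and were not set against the expression differences.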

How the data were processed

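The deposited values are log2 expression values that the authors made with RMA, per the submitters' processing notes; the sources used here give neither its version nor its settings. Of 12488 probe sets, 66 array controls were left out. The annotation supplied for the array left 1193 probe sets without a symbol and gave 396 several, and only the 10833 with a single symbol were named. All 45 member symbols stood unchanged in RefSeq's gene table of GRCm38.p6.

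Genotype was tested on the deposited values with limma 3.58.1 in R 4.3.3 (lmFit and eBayes, 2-sided), with Benjamini-Hochberg adjustment over 12422 probe sets at 0.05. The procedure was tested on simulated data with independent noise and changes of 1.5-fold or more. That test does not bear on array effects or on differences as small as those of the members. Each array was taken as 1 mouse, as the design text gives 3 per genotype. With 3 against 3, an exact permutation test cannot go below 0.1, so none is given for members. The number of arrays limits precision, and the median 95% half-width was 0.15 log2 over members.

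Members, role groups and lists were chosen with earlier results of these data known. Values on every array are given for members at an unadjusted p under 0.05, for each role group's brightest probe set and those with its 2 smallest p-values, for genes with known roles in cerebellum or with L1, and for Plxna3, Sema3f and Efnb1, added after seeing the values. Alternatives covered scaling, a filter at the 40th percentile, variance model, array weights, replicate block, omission of single arrays or of probe sets prone to cross-hybridization, averaging over each gene's probe sets, and a threshold of 0.1.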

Additional observations from a re-analysis of the deposited data

How the results depend on the processing

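No guidance probe set passed under any alternative, including a threshold of 0.1 and each array left out. The number at an unadjusted p under 0.05 was 7 with array weights (9.35% of all probe sets), 1 with the replicate block (5.1%), 1 without probe sets open to cross-hybridization (5.41%), and 1 to 6 over single arrays left out (3.18% to 8.68%), against 2 in the values as deposited (5.08%). The median over guidance genes was -0.0096 after median centring. For semaphorin receptors it was -0.0365 after quantile normalization, -0.0184 after median centring, -0.0347 after cyclic loess and -0.0963 with probe sets averaged by gene, and ran from -0.0747 to -0.0509 over single arrays left out. For ephrins it was -0.0123 after median centring and -0.1092 with the filter on dim probe sets, and ran from -0.0749 to -0.0344 over single arrays left out. For semaphorins it was 0.0104 with that filter. Median centring moved all differences alike, and the median over all probe sets to 0.0089, compared with -0.0229 as deposited. The causes of these shifts were not tested. Of the 58 differences, 32 kept their sign in every one of the 15 fits that held them, 23 of them lower and 9 higher in the knockouts. The filter held 37 of the 58, and the fit without probe sets open to cross-hybridization held 53. Those fits, the variance model and the replicate block leave a member's difference unchanged, so they could not turn a sign. The same count was not made over all probe sets.

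Same-numbered arrays did not deviate together, with correlations of 0.16, -0.32 and 0.17 between their deviations, and not every array correlated best with its own number, so the numbers were not taken as pairs. The replicate block changed no other call. Signal near the bottom of the range limits what the 5 probe sets under the 10th percentile can show. Low readings also limit the 16 of the 58 at or below 8.18, the median over the 35 genes of other tissues.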

Other observations

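Single arrays set several guidance readings apart. Plxnb2 read 9.40 in knockout 1 at one probe set, against at least 9.89 on the other 5 arrays. Efnb2 read 9.71 in knockout 2, against at least 10.14 elsewhere, and Sema7a read 9.27 in the same array, against at least 9.51. Without knockout 2 the difference of that Sema7a probe set was 0.080, against -0.066 with it. The lowest of the 6 values fell in knockouts 1, 2 and 3 for 12, 12 and 14 of the 58 guidance probe sets, and in wild types 1, 2 and 3 for 0, 13 and 7. The highest fell in knockouts 1, 2 and 3 for 3, 9 and 9, and in wild types 1, 2 and 3 for 16, 7 and 14. The same counts were not made over all probe sets, of which 62.3% were lower in the knockouts, so they are not particular to guidance genes as far as shown. Choroid plexus markers, 3 of 4 measured, varied widely within both genotypes, from 11.06 to 12.81 in the knockouts and from 10.94 to 12.80 in wild type as the log2 of their summed level, and their part in the guidance readings was not tested.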
